A study of Mus musculus with 2 samples.

Results

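The 10 genes described here encode the machinery of MHC class I antigen presentation and the inducible proteasome that feeds it. They were the class I heavy chains H2-K1 and H2-D1, their light chain B2m, the peptide-loading genes Tap1, Tap2 and Tapbp, the immunoproteasome subunits Psmb8, Psmb9 and Psmb10, and the regulator Nlrc5. They were chosen by gene symbol, and all 10 had a value among the 17245 genes of the table. RNA came from pancreatic islets of mice, hand-picked after collagenase digestion and kept in culture medium. There were 2 libraries, 1 labelled KO, for loss of the cytosolic DNA sensor cGAS from β cells, and 1 labelled wild type (WT). With 1 library per genotype no difference could be set against replicates and none was tested. The sources used here do not give the strain, age or number of mice, the deleted exon or the promoter that drove Cre.

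The libraries carried the markers of islets, with Ins1 at 237131 FPKM in the library labelled KO against 113793 FPKM in WT, and Ins2 at 182558 FPKM against 250577 FPKM in WT. FPKM, as the authors deposited it, is a read number divided by gene length and library size. Cgas reached 0.521 FPKM in the library labelled KO against 0.205 FPKM in WT, from at least 31 and 16 reads. Because the targeted gene was not lower, the name "library labelled KO" is kept for it, and each direction given is between the libraries as labelled. A gene total does not show whether a deleted exon or other islet cells gave the reads. In RNA of whole islets, a change in the number of cells of a type and a change in RNA per cell cannot be told apart. Whole read numbers recovered from the FPKM values put the depth at 14537660 reads in the library labelled KO and at 19097001 reads in WT and gave exact 95% intervals of each ratio, which cover counting error only. Genes that reached 1 FPKM in 1 library or both, 12428 in number, are called expressed.

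Class I molecules display peptides from proteins made inside the cell to CD8+ T cells. The proteasome cuts the peptides, the Tap1-Tap2 transporter carries them into the endoplasmic reticulum (ER), and tapasin (Tapbp) holds the empty heavy chain and B2m beside the transporter until a peptide fits. Interferons induce the immunoproteasome subunits, which replace the constitutive catalytic subunits and change the peptides that are cut. NLRC5 is the transactivator of class I genes and acts through a promoter module bound by RFX, CREB/ATF and NF-Y factors. In type 1 diabetes, class I molecules are known to be abundant on islet cells.

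Because NLRC5 acts at the promoters of class I genes, the annotated promoters of the class I chains and of the transporter subunit Tap1 are shown first. RefSeq windows on GRCm38.p6, from 250 bases before to 50 after an annotated start, were found for 8 of the 10 genes, without Tap2 and Nlrc5. For H2-K1 there were 2 windows and the first listed was taken, so its positions depend on that choice of start. Capitals mark the letters ATTGG (Y box, bound by NF-Y), TGACG (X2 box, bound by CREB/ATF), AANNGAAA (the core bound by interferon regulatory factors, IRF) and GGG followed by any 2 bases, TT, any 1 base and CC (NF-κB), each searched on both strands. The windows are H2-K1 at chr17:34000298-34000597 (minus strand), H2-D1 at chr17:35262844-35263143, B2m at chr2:122147437-122147736 and Tap1 at chr17:34187306-34187605 (plus strand).
H2-K1: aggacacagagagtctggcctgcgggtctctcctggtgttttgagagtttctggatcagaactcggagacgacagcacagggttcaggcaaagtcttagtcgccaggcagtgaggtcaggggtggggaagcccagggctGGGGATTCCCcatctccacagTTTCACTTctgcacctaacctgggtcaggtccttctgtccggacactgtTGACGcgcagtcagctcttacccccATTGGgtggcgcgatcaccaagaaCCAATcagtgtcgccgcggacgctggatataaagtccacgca
H2-D1: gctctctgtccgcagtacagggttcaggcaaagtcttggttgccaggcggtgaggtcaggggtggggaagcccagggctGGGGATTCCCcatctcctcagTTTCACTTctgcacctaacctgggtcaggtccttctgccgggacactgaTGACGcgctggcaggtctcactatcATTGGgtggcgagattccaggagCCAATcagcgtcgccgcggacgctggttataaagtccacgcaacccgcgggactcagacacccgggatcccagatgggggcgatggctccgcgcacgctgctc
B2m: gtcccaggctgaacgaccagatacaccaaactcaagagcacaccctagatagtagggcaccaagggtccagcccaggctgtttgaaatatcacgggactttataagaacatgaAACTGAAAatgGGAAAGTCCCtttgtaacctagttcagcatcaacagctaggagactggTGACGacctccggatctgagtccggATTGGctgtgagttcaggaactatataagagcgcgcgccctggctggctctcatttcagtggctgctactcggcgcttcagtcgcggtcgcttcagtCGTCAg
Tap1: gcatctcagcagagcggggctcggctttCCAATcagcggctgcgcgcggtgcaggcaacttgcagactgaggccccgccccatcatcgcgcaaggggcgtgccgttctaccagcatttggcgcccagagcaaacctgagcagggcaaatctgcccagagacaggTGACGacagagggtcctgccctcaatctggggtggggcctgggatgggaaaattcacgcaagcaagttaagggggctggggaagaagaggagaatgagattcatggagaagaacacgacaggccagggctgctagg

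All 4 kinds of letters stood in the windows of H2-K1, H2-D1 and B2m, as in 33 of all 32851 RefSeq windows. Singly the letters were common, the Y box in 37.4% of all windows, the X2 box in 20.8%, the IRF core in 23.9% and the NF-κB letters in 4.79%. In H2-K1, H2-D1 and B2m the X2 and Y boxes lay in the same order on the gene's strand with 20 bases between them, an arrangement that 31 of all windows (0.0944%) held on either strand. The Tap1 window also held a Y box and an X2 box, but apart and on opposite strands, and its Y box is the one nearest the Psmb9 start. Tap1 and Psmb9 are transcribed away from each other with 225 bases between their annotated starts, so 275 bases of their windows are the same DNA. Tapbp held Y boxes only, Psmb8 held 1 match to the interferon-γ-activated site TTCNNNGAA (in 8.30% of all windows) and Psmb10 held none of the 5. A match is a run of letters and not evidence of binding.

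**Figure D1:**
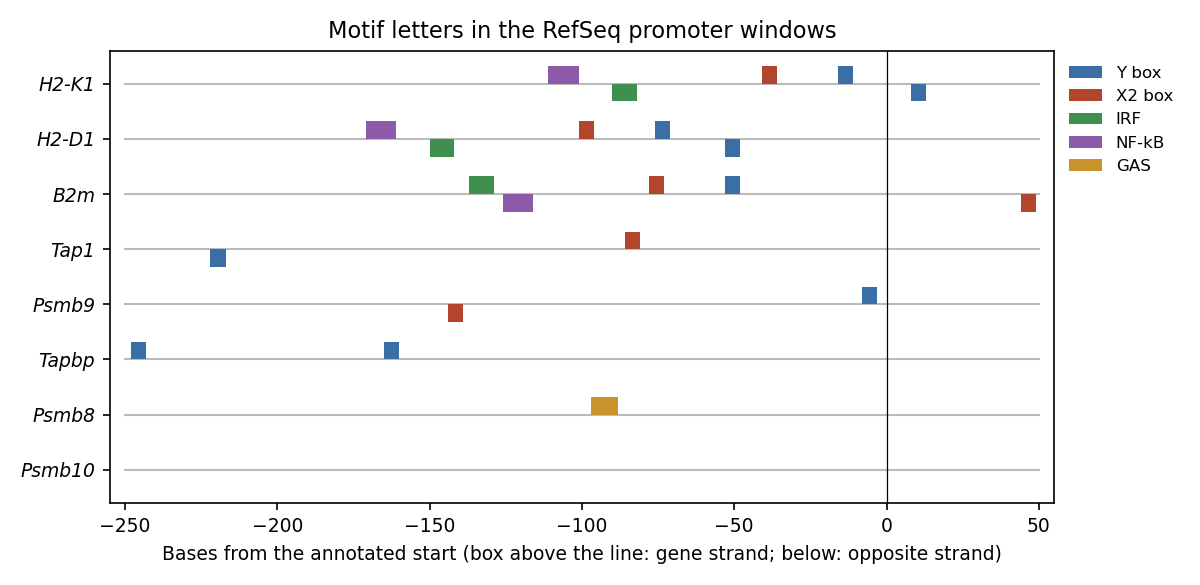
Positions of the motif letters in the RefSeq promoter windows of 8 class I presentation genes, in bases from the annotated start, with boxes above the line on the gene's strand and below it on the opposite strand. In H2-K1, H2-D1 and B2m the X2 box and the Y box stand 20 bases apart, after an IRF core and NF-κB letters.

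The chains of the class I molecule were higher in the library labelled KO, most of all the light chain, except that H2-D1 was lower once a trend on GC content was removed. B2m, the invariant chain of every class I molecule, had 522 FPKM in the library labelled KO against 277 FPKM in WT, a ratio of 1.88 (exact 95% interval 1.81 to 1.96). H2-K1, a classical heavy chain, measured 345 FPKM in the library labelled KO against 227 FPKM in WT, a ratio of 1.52 (1.47 to 1.56). H2-D1, the other classical heavy chain, stood at 288 FPKM in the library labelled KO against 249 FPKM in WT, a ratio of 1.15 (1.12 to 1.19). The intervals of the 3 chains did not overlap one another, so the ratio of B2m exceeded that of H2-K1, and that of H2-K1 exceeded that of H2-D1, beyond counting error. Their relation within a library differed too: B2m equalled 0.825 of the summed heavy chains in the library labelled KO and 0.581 in WT. H2-K1 was above H2-D1 in the library labelled KO (ratio 1.20, 1.16 to 1.24) and below it in WT (0.912, 0.885 to 0.939). Class I heavy chains are close copies, and 8.79% of the 50-base stretches of the H2-K1 transcript and 14.3% of those of H2-D1 also occur in transcripts of other genes. How the authors assigned such reads is not known. None of the 50-base stretches of B2m were shared, and Patl2, which overlaps it, reached 0.0244 FPKM in the library labelled KO and was listed at 0 in WT.

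As deposited, both transporter subunits and tapasin were higher, Tap1 by the widest ratio and Tap2 by the smallest. With a trend on GC content and length removed, Tap1 was at 0.37, Tapbp at 0.16 and Tap2 at 0.0082 on the log2 scale. Tap1, the transporter subunit whose gene adjoins Psmb9, had 13.5 FPKM in the library labelled KO against 7.93 FPKM in WT (1.70-fold, 1.42 to 2.04). Tap2, its partner subunit, measured 26.6 FPKM in the library labelled KO against 21.6 FPKM in WT (1.23-fold, 1.09 to 1.40). The intervals of Tap1 and Tap2 did not overlap, and Tap1 equalled 0.508 of Tap2 in the library labelled KO (0.437 to 0.589) and 0.368 in WT (0.312 to 0.432). Tapbp stood at 118 FPKM in the library labelled KO against 84.0 FPKM in WT (1.40-fold, 1.35 to 1.46, overlapping the intervals of both others). It kept nearly the same level relative to both transporter subunits together, 2.94 in the library labelled KO and 2.85 in WT.

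**Figure D2:**
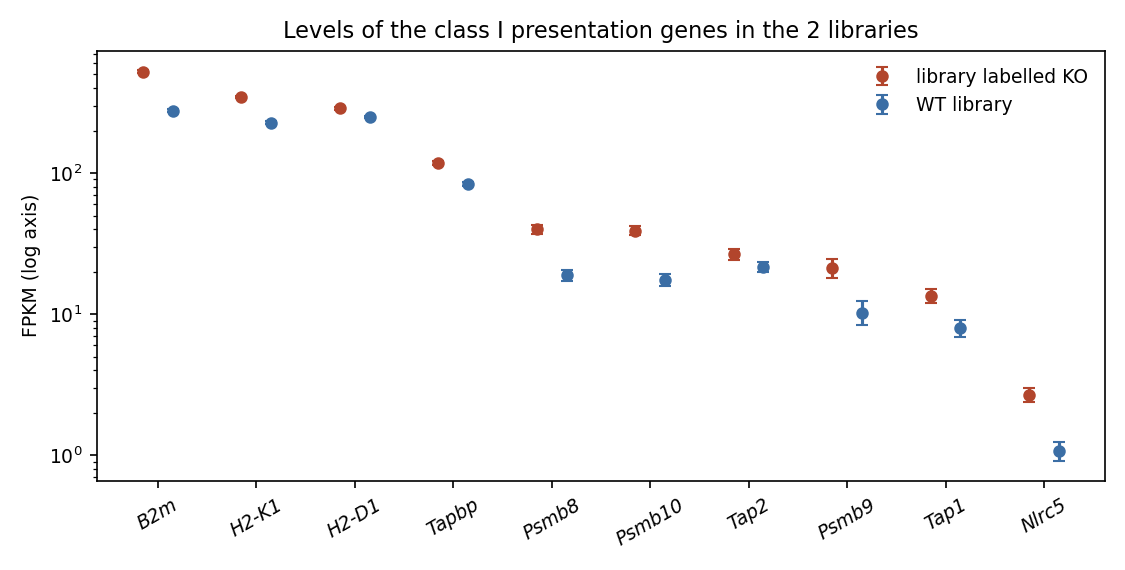
FPKM of the 10 genes on a log axis in the library labelled KO (left point of each pair) and the WT library (right point), ordered by level in the library labelled KO, with exact 95% Poisson intervals of the counted reads. B2m was highest in both libraries, at 522 and 277 FPKM, and Nlrc5 lowest, at 2.66 and 1.07 FPKM.

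As deposited, the immunoproteasome subunits were about 2-fold higher. With the trend on GC content and length removed, Psmb8 was at 0.60, Psmb10 at 0.56 and Psmb9 at 0.49 on the log2 scale. Psmb8 (the chymotrypsin-like subunit β5i, LMP7) reached 39.8 FPKM in the library labelled KO against 18.8 FPKM in WT (2.12-fold, 1.88 to 2.39). Psmb9 (β1i, LMP2) had 21.1 FPKM in the library labelled KO against 10.2 FPKM in WT (2.07-fold, 1.62 to 2.66). Psmb10 (β2i, MECL-1), which unlike the others lies outside the MHC, measured 39.0 FPKM in the library labelled KO against 17.4 FPKM in WT (2.24-fold, 1.98 to 2.53). The intervals of the 3 ratios overlapped one another. On the log2 scale with 1 FPKM added to both values, which understates low genes, the differences were 1.04 for Psmb8, 0.98 for Psmb9 and 1.12 for Psmb10. Psmb8 and Psmb10 were past a 2-fold difference on that scale, as were 6.98% of expressed genes, and Psmb9 was just short of it. Nlrc5, from at least 306 and 161 reads, stood at 2.66 FPKM in the library labelled KO against 1.07 FPKM in WT. Its ratio was the highest of the 10 genes, 2.50-fold (2.06 to 3.04), but its log2 difference with 1 FPKM added was 0.83. The interval overlapped those of Psmb8, Psmb9 and Psmb10, and the WT value was close to the 1 FPKM limit of expressed genes.

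Each inducible subunit takes the place of 1 constitutive subunit, and their ratio within a library does not depend on how the libraries are scaled. Psmb8 equalled 0.707 of its counterpart Psmb5 in the library labelled KO (0.636 to 0.786) and 0.340 in WT (0.303 to 0.382). Psmb10 equalled 0.602 of Psmb7 in the library labelled KO (0.546 to 0.663) and 0.299 in WT (0.267 to 0.335). As deposited, the balance of both pairs was thus about 2-fold further toward the inducible subunit in the library labelled KO. A trend on GC content and length can still move such ratios. With it removed, the inducible minus the constitutive log2 difference, with 1 FPKM added, was 0.61 for Psmb10 and Psmb7. For Psmb8 and Psmb5 it was 1.29. Psmb9 equalled 0.206 of Psmb6 in the library labelled KO (0.175 to 0.241) and 0.160 in WT (0.131 to 0.195), and these intervals overlapped. Psmb6 was itself higher, at 102 FPKM in the library labelled KO against 63.6 FPKM in WT (1.61-fold, 1.5 to 1.73), although it lay at -0.036 on the log2 scale without the GC and length trend of the libraries. The ratio of Psmb5 was 1.02 (0.923 to 1.13), with log2 values below 0 under 3 other scalings and of -0.68 without the trend. That of Psmb7 was 1.11 (1.02 to 1.21), and -0.051 on the log2 scale without the trend. Of the summed FPKM of the 6 catalytic subunits, the inducible ones made up 30.9% in the library labelled KO and 20.8% in WT. For Psmb5, 57.1% of 50-base stretches also occur in transcripts of other genes, the pseudogene Psmb5-ps among them, so its level is less certain.

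**Figure D3:**
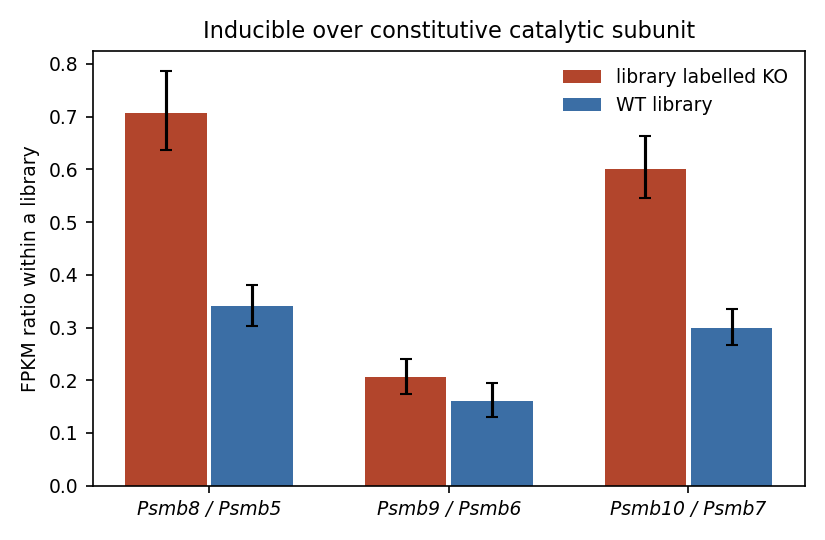
FPKM of each inducible catalytic subunit over its constitutive counterpart within the library labelled KO (left bar of each pair) and within the WT library (right bar), with exact 95% counting intervals. Psmb8 over Psmb5 was 0.707 against 0.340 and Psmb10 over Psmb7 0.602 against 0.299, while the intervals of Psmb9 over Psmb6 overlapped.

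As deposited, all 10 genes were higher in the library labelled KO, as were 54.4% of expressed genes, and 9 of 10 were higher without the trend on GC content and length, against 53.9% of 12206 genes. For all 10 the counting interval of the ratio lay above 1, as it did for 42.1% of 12406 expressed genes with recovered reads, while 34.3% had intervals below 1. At 2-fold on the log2 scale with 1 FPKM added, 2 of 10 genes were higher and none lower, against 6.98% and 3.88% of expressed genes. Those background counts were 868 higher and 482 lower, so higher genes made up 64.3% of them, against 46.5% with each library scaled to a sum of 1000000, 52.3% with median ratio scaling and 44.3% when the sums were made equal leaving out the 20 highest genes. The median difference of the 10 genes was 0.76 and that of all expressed genes 0.077, with quartiles of -0.35 and 0.51. Single genes stood between percentile 57.5 (H2-D1) and percentile 95.2 (Psmb10) of expressed genes. Under the sum, median ratio and 20-gene scalings, which moved the median of all expressed genes by -0.12, -0.080 and -0.13, all 10 genes were still above 0.

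**Figure D4:**
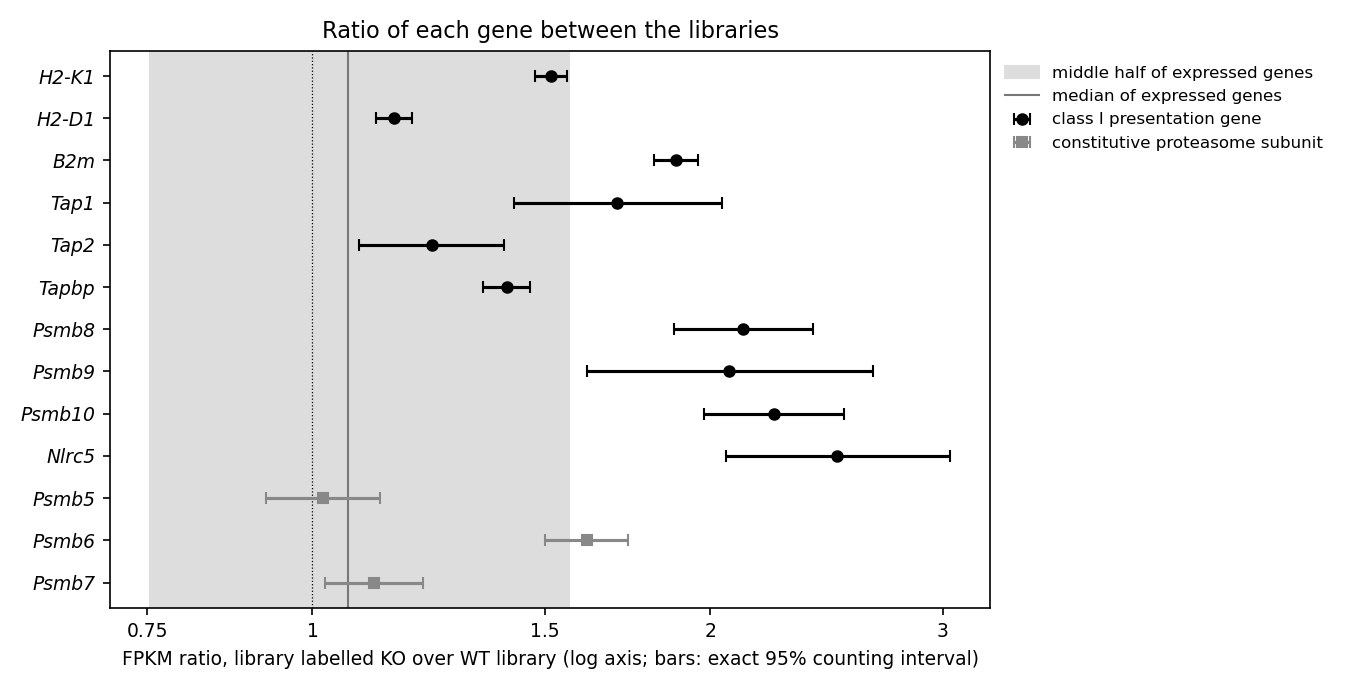
FPKM ratio of the library labelled KO over the WT library for the 10 class I presentation genes (circles) and the 3 constitutive proteasome subunits (squares), on a log axis with exact 95% counting intervals; the grey band spans the quartiles of expressed genes, 0.753 to 1.56, and the grey line their median, 1.06. The ratios of Psmb8, Psmb9, Psmb10, Nlrc5, B2m, Tap1 and Psmb6 lie right of the band, with intervals of Tap1 and Psmb6 that reach into it, and Psmb5 and Psmb7 lie within it.

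The order of the genes by level was similar in both libraries. In the library labelled KO it ran B2m, H2-K1, H2-D1, Tapbp, Psmb8, Psmb10, Tap2, Psmb9, Tap1 and Nlrc5. In WT it ran B2m, H2-D1, H2-K1, Tapbp, Tap2, Psmb8, Psmb10, Psmb9, Tap1 and Nlrc5. Psmb8 and Psmb10 did not differ beyond their counting intervals in either library, and in WT the interval of Tap2 also overlapped that of Psmb8. The intervals of Tap2 and Psmb9 overlapped in the library labelled KO, as did those of Psmb9 and Tap1 in WT. The chains of the class I molecule were among the most abundant RNAs, between percentiles 99.0 and 99.6 of expressed genes in the library labelled KO and between 99.0 and 99.3 in WT. Nlrc5 stood at percentile 19.9 in the library labelled KO and 6.83 in WT.

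The difference between the libraries went with the GC content of transcripts, and 8 of the 10 genes fell in 1 narrow range of it. H2-K1, H2-D1, Tap1, Tap2, Tapbp, Psmb8, Psmb9 and Psmb10 had 55% to 58% GC in GENCODE M21 transcripts. All 1784 expressed genes of that range had a median difference of 0.36, with 12.3% at least 2-fold higher. Nlrc5, at 52.6% GC, lay where the median was 0.21. B2m had 41.2% GC, and expressed genes under 42% had a median of -0.30 with 1.63% at least 2-fold higher. With the trend on GC content and transcript length taken out, Nlrc5 was at 0.95 and B2m at 0.83, close to their values before. The others moved toward 0, with Psmb8 at 0.60, Psmb10 at 0.56, Psmb9 at 0.49, Tap1 at 0.37, Tapbp at 0.16, H2-K1 at 0.13 and Tap2 at 0.0082. H2-D1 changed sign, to -0.15. On that scale none of the 10 reached 2-fold, against 4.05% of all genes higher and 2.3% lower, and their median was 0.43 beside 0.048 for all genes. On that scale, which has 1 FPKM added, the difference between the libraries was still higher for each inducible subunit than for its constitutive counterpart. The inducible minus the constitutive value was 1.29 for Psmb8 and Psmb5, 0.52 for Psmb9 and Psmb6 and 0.61 for Psmb10 and Psmb7. Ratios within a library have nothing added, so the 2 measures are not the same. For the first of these the constitutive Psmb5 itself stood at -0.68 without the trend.

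Other genes of the class I pathway differed by step. Beside H2-K1 and H2-D1, 8 class I heavy chains were expressed, 1 of them at least 2-fold higher and none 2-fold lower, and their median was 0.35. The nonclassical chain H2-T24 reached 3.69 FPKM in the library labelled KO against 1.10 FPKM in WT (3.34-fold, 2.36 to 4.81), and H2-Q4 reached 77.0 against 41.2 FPKM (1.87-fold). H2-Q2 had 31.1 FPKM in the library labelled KO against 40.8 FPKM in WT, a log2 difference of -0.38. Without the GC and length trend 4 of these 8 chains lay above 0, the median was 0.080, H2-T24 was still 2-fold higher and H2-Q2, at -1.05, was 2-fold lower. Among 5 expressed class I-like genes, which encode relatives of the class I fold with other ligands, none passed 2-fold. Fcgrt, the neonatal receptor for IgG, was at 0.81, and Mr1, which presents vitamin B metabolites, at -0.50.

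The α and β subunits of the proteasome activator PA28, Psme1 and Psme2, also induced by interferon, were higher by ratios near those of the immunoproteasome. Psme1 measured 99.7 FPKM in the library labelled KO against 48.6 FPKM in WT (2.05-fold, 1.89 to 2.23). Psme2 stood at 89.2 FPKM in the library labelled KO against 45.1 FPKM in WT (1.98-fold, 1.81 to 2.16). Psme3, the nuclear PA28γ subunit, was lower, at 13.0 FPKM in the library labelled KO against 20.2 FPKM in WT (log2 difference -0.60, and -0.56 without the GC and length trend), and the activator Psme4 was at -0.35, or 0.14 without the trend. Pomp, the assembly factor of the 20S core, reached 103 FPKM in the library labelled KO against 61.9 FPKM in WT. Of the 9 genes of activators and assembly, 2 were at least 2-fold higher, Psme1 and the assembly chaperone Psmg3, with a median of 0.46. Without the GC and length trend Psme1 was at 0.47, Psme2 at 0.48 and Psmg3 at 0.32, and none of the 9 passed 2-fold. None of the 11 noncatalytic subunits of the 20S core passed 2-fold. Their median was 0.38, with Psmb3 at 0.72 and Psmb4 at 0.61, and without the trend 0.18, with Psmb3 at 0.085 and Psmb4 at 0.23.

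Most other ER and cytosolic factors listed for the pathway were lower in the library labelled KO, apart from Calr and Thop1. Of 5 genes of peptide loading and trimming in the ER, none was 2-fold higher or lower, 4 were below 0 and the median was -0.62. Canx, the chaperone that binds new heavy chains, had 92.0 FPKM in the library labelled KO against 167 FPKM in WT (1.82-fold lower), and was past 2-fold lower with each library scaled to a sum of 1000000 (-1.01). Erap1, the ER aminopeptidase that trims peptides to fit class I molecules, measured 9.15 FPKM in the library labelled KO against 16.8 FPKM in WT (1.84-fold lower). Calr, the chaperone calreticulin and the most abundant of the 5, was at 0.13, or -0.021 with each library scaled to a sum of 1000000. Pdia3, the oxidoreductase joined to tapasin, was at -0.62 and the tapasin relative Tapbpl at -0.61. Of 7 genes listed as cytosolic peptidases, 1 was at least 2-fold lower, and the median was -0.54. It was Lnpep, at 2.43 FPKM in the library labelled KO against 7.80 FPKM in WT. Lnpep encodes a membrane aminopeptidase of endosomes, so the list is not purely cytosolic. The peptidase Thop1 was at 0.44. After removal of the GC and length trend the ER list had a median of -0.44, with Canx at -0.44 and Erap1 at -0.30. The peptidases then had a median of -0.14, with Lnpep at -0.78, no longer past 2-fold, and Ide at -0.10, and all 7 lay below 0.

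**Figure D5:**
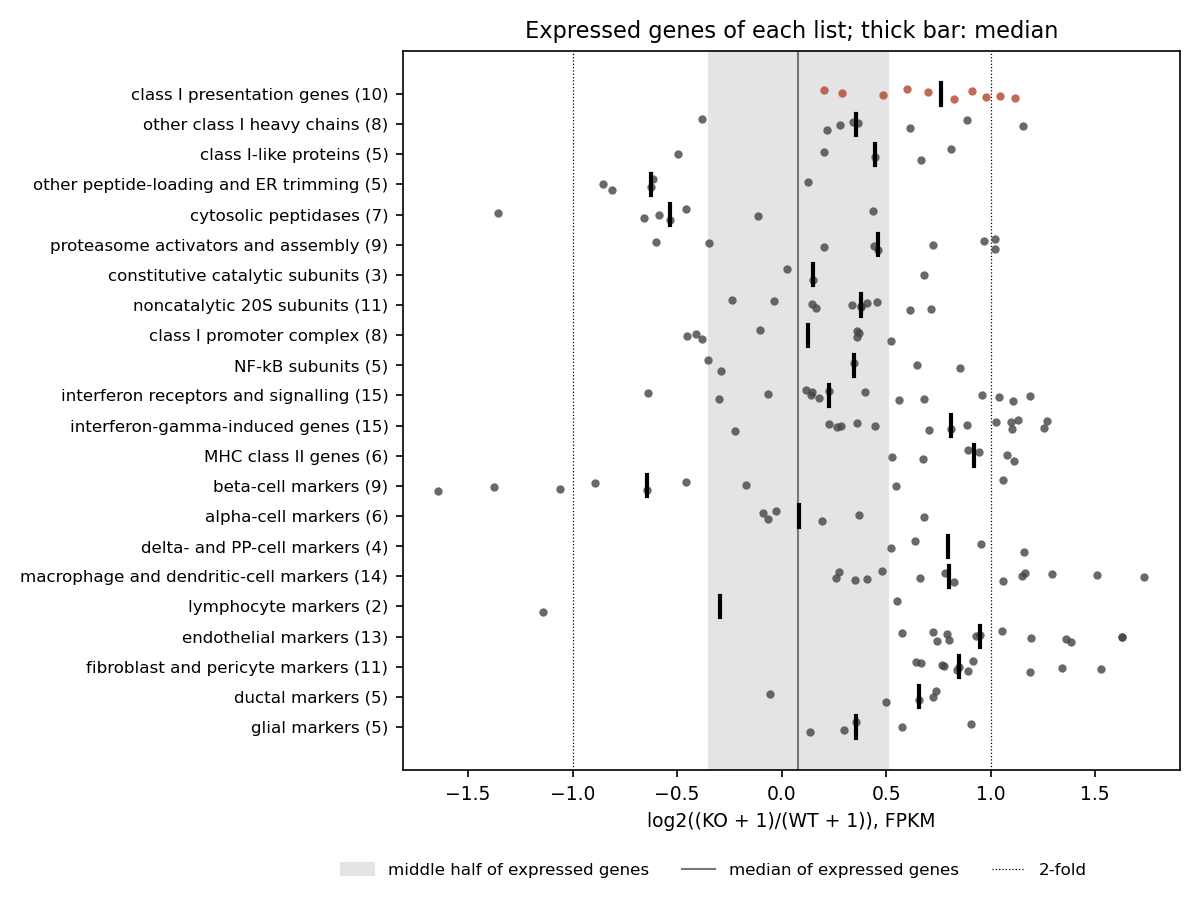
Difference between the library labelled KO and the WT library, log2((KO + 1)/(WT + 1)) of FPKM, for each expressed gene of the lists, with a thick bar at the list's median and its number of expressed genes in parentheses; the grey band spans the quartiles of expressed genes and dotted lines mark 2-fold. The class I presentation genes had a median of 0.76, the ER loading list -0.62 and the cytosolic peptidases -0.54; acinar markers, at a median of -3.95, are not drawn.

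Regulators of the pathway were mixed. For 8 genes of the promoter complex that NLRC5 joins, none passed 2-fold and the median was 0.13, with the NF-Y subunits Nfyc at 0.52 and Nfyb at -0.38, and Atf1 and Creb1 at -0.45 and -0.41. Without the GC and length trend the median was 0.18, Nfyb was at -0.067, Atf1 at -0.25 and Creb1, with the sign turned, at 0.18. Of 5 NF-κB subunits none passed 2-fold, at a median of 0.35, and Relb stood at 4.43 FPKM in the library labelled KO against 2.0 FPKM in WT, a difference of 0.85. Nfkb1 and Rel were at -0.35 and -0.29. Without the trend the median was 0.22, with Relb at 0.31, Nfkb1 at -0.40 and Rel at 0.25. Of 15 genes of interferon receptors and signalling, 3 were at least 2-fold higher and the median was 0.22. The 3 were Stat2 (19.3 FPKM in the library labelled KO against 7.90 FPKM in WT) and Irf9 (18.7 against 8.59 FPKM), which act together in type I interferon signalling, and the feedback inhibitor Socs3 (16.1 against 6.94 FPKM). Without the GC and length trend 1 of the 15 genes passed 2-fold. Irf1, an interferon-γ-driven activator of class I genes named here after its value was seen, was at 0.18, and at -0.014 without the GC and length trend.

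Of 15 expressed genes that interferon-γ induces alongside class I, 14 lay above 0. At 2-fold 6 of them were higher (40.0%, against 6.98% of all expressed genes) and none was lower, and the list's median was 0.81. They include guanylate-binding proteins and immunity-related GTPases, which act against microbes inside cells. Differences within these families were wide, with Gbp7, Irgm1 and Irgm2 at 0.23, 0.28 and 0.26, inside the quartiles of expressed genes, and the checkpoint ligand Cd274 was at -0.22. Gbp3 reached 6.43 FPKM in the library labelled KO against 2.08 FPKM in WT (3.09-fold, 2.50 to 3.84) and Iigp1 8.49 against 2.97 FPKM (2.85-fold, 2.41 to 3.40). Gbp2 had 10.8 FPKM in the library labelled KO against 4.39 FPKM in WT and Tgtp2 6.62 against 2.55 FPKM. With the GC and length trend removed the median was 1.10, and 8 of the 15 were at least 2-fold higher, against 4.05% of all genes, with Cd274 at 0.087. The 10 interferon genes of the list are not analysed here.

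MHC class II genes, which antigen-presenting cells use, were higher too. Of 6 expressed genes 2 were at least 2-fold higher, Cd74 (421 FPKM in the library labelled KO against 194 FPKM in WT) and H2-Eb1 (122 against 57.2 FPKM), and the median was 0.92, or 0.44 with none past 2-fold once the GC and length trend was removed. Macrophage and dendritic-cell markers were higher in the same library, 6 of 14 by at least 2-fold with none lower, at a median of 0.80, and 2 of 14 at a median of 0.52 without the trend. Summed over 15 markers they stood at 367 FPKM in the library labelled KO, against 160 FPKM in WT, with Aif1 at 8.12 against 1.74 FPKM and none of the 15 at 0. Endothelial markers summed to 844 FPKM in the library labelled KO, against 368 FPKM in WT over 13 genes, 6 of them at least 2-fold higher (7 without the trend), and fibroblast and pericyte markers to 219 and 114 FPKM over 12 genes. The 10 class I genes together had 1415 FPKM in the library labelled KO against 915 FPKM in WT, a ratio of 1.55, beside ratios of 2.29, 2.29 and 1.93 for these 3 marker sums. The part of macrophages, endothelium and stroma in the class I difference was not tested. Lymphocyte markers were low in both libraries, 17 genes summing to 7.36 FPKM in the library labelled KO, against 10.6 FPKM in WT, with 2 expressed. The B-cell gene Cd79a held most of the WT sum, at 2.68 FPKM in the library labelled KO against 7.11 FPKM in WT, and without it, a comparison added after the values were seen, the sums were 4.69 FPKM in the library labelled KO against 3.52 FPKM in WT. Ncr1 and Klrb1c, markers of natural killer cells, were at 0 in the library labelled KO against 0.071 and 0.22 FPKM in WT. Nkg7 (0.42 against 0.26 FPKM in WT) and Gzmb (0.23 against 0.14 FPKM) were higher in the library labelled KO. Gzma (0.16 against 0.24 FPKM in WT) was lower. All of these lay below 1 FPKM in both libraries and rest on few reads. Acinar markers, which contaminating exocrine tissue carries, summed to 108 FPKM in the library labelled KO against 1684 FPKM in WT. Of 9 β-cell markers 1 was at least 2-fold higher and 3 lower, at a median of -0.65, with the β-cell phosphatase gene G6pc2 at 427 FPKM in the library labelled KO against 1334 FPKM in WT. Medians were 0.084 for α-cell markers, 0.80 for δ- and PP-cell markers, 0.66 for ductal and 0.36 for glial markers. Without the trend they were -0.13 for α-cell markers, 0.065 for δ- and PP-cell markers, 0.24 for ductal and 0.026 for glial markers, and -0.55 for β-cell markers.

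Many neighbours of the class I genes on chromosome 17 were higher as well. Of the 10 genes 7 lie in the MHC on chromosome 17, from Tapbp at 33919478 to H2-D1 ending at 35267497, while B2m lies on chromosome 2 and Psmb10 and Nlrc5 on chromosome 8 (GRCm38.p6). Within it Psmb9 (34182030 to 34187330), Tap1 (34187556 to 34197225), Psmb8 (34198195 to 34201454) and Tap2 (34204479 to 34216321) adjoin one another between H2-K1 (33996012 to 34000619) and H2-D1 (35263094 to 35267497). B2m spans 122147687 to 122153082, Psmb10 105935728 to 105938392 and Nlrc5 94434335 to 94527272, the last overlapping 2 long noncoding RNAs and a microRNA. Of 62 other expressed genes in that stretch 22 (35.5%, against 6.98% of all expressed genes) passed 2-fold upward and none downward, at a median of 0.71. After removal of the GC and length trend 9 of 61 (14.8%, against 4.05% of all genes) were at least 2-fold higher and 1 lower, at a median of 0.32. The class II genes whose symbols begin with H2 lie in the same stretch, and Cd74 does not.

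Genes other than the 10 described here that share the promoter letters lay on both sides of 0. Of all expressed genes 54.4% were above 0 and 6.98% at least 2-fold higher. Apart from H2-K1, H2-D1 and B2m, 17 expressed genes held an X2 box and a Y box at the class I spacing. Of these 10 were above 0, 1 by at least 2-fold, with a median of 0.35, and the class I gene H2-M3 among them was at 0.22. Of 17 other expressed genes with all 4 kinds of letters, 11 were above 0, 1 of them by at least 2-fold, with a median of 0.55. Values without the GC and length trend are not given for these sets. The genes with all 4 kinds of letters included the class I genes H2-Q4 at 0.89 and H2-Q7 at 0.34 and the class II gene H2-Aa at 0.89.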

How the data were processed

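Islet RNA of 1 library labelled KO and 1 WT library was sequenced after SMARTER mRNA library preparation, per the labels' protocols. The authors deposited 1 table of FPKM values with 1 column per library. The submitters' processing notes name GRCm38 and mm10 as the build. The sources used here do not name the aligner, counter, annotation, strandedness or any filter. Genes and gene lists were chosen with earlier results of these data known, and motifs with the promoter windows in view.

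Values were used without further scaling. Library totals of 14537660 and 19097001 reads were found from 361 genes with equal reads in both columns, and whole reads were searched for each gene over lengths from 60 to 30000 bases, with a tolerance of 1e-05 reads plus 1e-09 times the reads. This gave whole reads for 17178 genes (99.6%). The smallest fitting read numbers were taken, and the true ones may be whole multiples of them, so the exact Clopper-Pearson 95% intervals can be too wide. Since PCR can copy a molecule, the intervals hold counting error alone. For the 10 genes the smallest reads ranged from 170 to 10697 in the library labelled KO and from 108 to 9267 in WT. The recovery and the 2-fold limit were tested on simulated data.

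Differences are log2((KO + 1)/(WT + 1)), called at 2-fold among expressed genes (1 FPKM or more in 1 library or both). No test was run, since there is 1 library per genotype. Named genes were the 10 genes, their constitutive counterparts, Cgas, Ins1, Ins2 and up to 4 genes with the widest difference of each pathway list and up to 2 of each marker list. Other genes named, Psme3, Psme4, Calr, Thop1, Rel, Cd274, Gbp7, Irgm1, Irgm2, Irf1, Patl2, H2-Aa, H2-Q7, Ncr1 and Klrb1c, were chosen after their values were seen. H2-M3, Nkg7, Gzma and Gzmb were chosen in the same way. Alternatives were other pseudocounts, floors and scalings, and removal of a lowess trend (fraction 0.3, 3 iterations) on GC content and then log2 transcript length, each taken from a gene's longest coding transcript in GENCODE M21, for 12206 expressed genes. Python 3.11.15, SciPy 1.17.1 and statsmodels 0.14.6 were used.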

Additional observations from a re-analysis of the deposited data

How the results depend on the processing

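With 1 library per genotype no alternative leaves out a replicate, and no value carries a biological error. No paired analysis was possible because each genotype has 1 library and no test was run. The count of class I presentation genes at least 2-fold higher, 2 of 10, was 4 with a pseudocount of 0.1 and 1 with median ratio scaling. It was 0 with a pseudocount of 5, with each library scaled to a sum of 1000000, with equal sums without the 20 highest genes and without the trend on GC content and length. The share of all expressed genes at least 2-fold higher, 6.98%, was 12.5% with a pseudocount of 0.1 and 5.44% with median ratio scaling. Under the settings that gave 0 it was, in the same order, 2.45%, 5.36%, 4.65% and 4.05%. The median of the 10 genes, 0.76, ranged over all 8 alternatives from 0.43 with the trend removed to 0.84 with a pseudocount of 0.1. With a pseudocount of 5 it was 0.55. The 868 expressed genes at least 2-fold higher became 1556 and 305 with pseudocounts of 0.1 and 5, 576 with equal sums without the 20 highest genes and 494 with the trend removed. The 482 at least 2-fold lower became 181 with a pseudocount of 5, 796 with each library scaled to a sum of 1000000, 724 with equal sums without the 20 highest genes and 281 with the trend removed. The median log2 difference of the 3 inducible-to-constitutive ratios, 1.01, stayed within counting error with 0.1 or 5 FPKM added. With the trend removed, an alternative added after seeing the data, it was 0.61. That value was taken from log2 differences with 1 FPKM added, while the 1.01 has nothing added. Of 79 values of the 10 genes under the alternatives 78 were above 0, the exception being H2-D1 with the trend removed, at -0.15. The cause of these shifts was not tested. With the floor of 5 FPKM Nlrc5 drops out.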
